A study of Oryza sativa with 60 samples.

Results

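The genes described here are those whose transcripts were present in rice anthers from 0.4 to 2.0 mm in length and stood far lower in anthers of 2.5 mm, the longest sampled. They number 200 of the 35594 gene IDs in the deposited mRNA tables. They were chosen from the measured values themselves: for each gene the mean of log2(FPKM + 1) was taken per length, and the gap between the lowest mean at 0.4 to 2.0 mm and the mean at 2.5 mm was computed. FPKM is a count of sequenced fragments scaled to transcript length and to the size of the library. A gene was kept if this gap was wider than that of any other run of neighbouring lengths, was at least 1 on the log2 scale, and if the gene averaged at least 5 FPKM at each of the 9 lengths before 2.5 mm. Of the 9563 genes with that level, 1305 (13.6%) met the rule, and the 200 with the widest gap are the members. The fall from 2.0 to 2.5 mm thus chose the genes and is given below as a description without a test.

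All samples were anthers of Kitaake_WT rice, a japonica cultivar that flowers early and is widely used for transformation, grown in a greenhouse, and no other genotype or treatment was included. Lengths were 0.4, 0.6, 0.8, 1.0, 1.2, 1.4, 1.6, 1.8, 2.0 and 2.5 mm, with 3 biological replicates each, so that 30 mRNA libraries were used. Each sample pooled 20 to 30 anthers. The labels give the length but not the stage of the pollen, nor whether replicates came from different plants, so the tests measure only the spread between these samples.

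An anther is a set of wall layers around the cells that become pollen. Its innermost wall layer, the tapetum, feeds the developing microspores and then breaks down by programmed cell death, while the microspores divide and fill with starch and stored mRNA. Anther length is a common proxy for this course in rice, and the longest anthers are those nearest to maturity. Because whole anthers were sequenced, fewer cells of a type and less RNA per cell cannot be told apart. The deposited tables and the reference used here give no names for the Kitaake IDs (0 of 35594 matched), so functions are not stated, cell type markers could not be checked, and only a few IDs are printed.

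The number of genes at 1 FPKM or more was 17391 in the library with the fewest and 21213 in that with the most. The depth is unknown, since no read counts were used here and whole reads could not be recovered from the FPKM. One library stood apart where it matters most: 2.5 mm replicate 3 correlated at r = 0.895 with the mean of the other 2.5 mm libraries and at 0.932 with the mean of 2.0 mm. For replicates 1 and 2 these values were 0.957 and 0.974 with their own length and 0.737 and 0.768 with 2.0 mm. These correlations are across genes, which are not independent replicates. The levels, counts and shares of the members at 2.5 mm are therefore given by library beside their means.

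The level of the members fell in stages. Their median was 33.8, 38.8 and 37.7 FPKM in replicates 1, 2 and 3 at 0.4 mm, and 28.6, 26.3 and 24.7 FPKM at 1.8 mm. It was 14.9, 15.2 and 17.7 FPKM at 2.0 mm, and 1.42, 1.96 and 6.52 FPKM at 2.5 mm. The lowest median before 2.0 mm was 19.48 FPKM, in 1.4 mm replicate 1, so the 2.0 mm libraries lay below all earlier ones, and the 2.5 mm libraries lay below those of 2.0 mm without overlap. The median of all 9563 genes expressed at the 9 lengths was 19.4 ± 1.88 FPKM at 2.0 mm and 12.2 ± 4.08 FPKM at 2.5 mm (mean of the library medians ± SD, n = 3). Together the members held 3.12% ± 0.183 of all FPKM at 0.4 mm and 2.83% ± 0.187 at 1.6 mm (mean ± SD, n = 3). At 2.0 mm this share was 1.02% ± 0.0764, and at 2.5 mm it was 0.196% ± 0.173, with 0.0863%, 0.106% and 0.395% in replicates 1, 2 and 3.

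**Figure D1:**
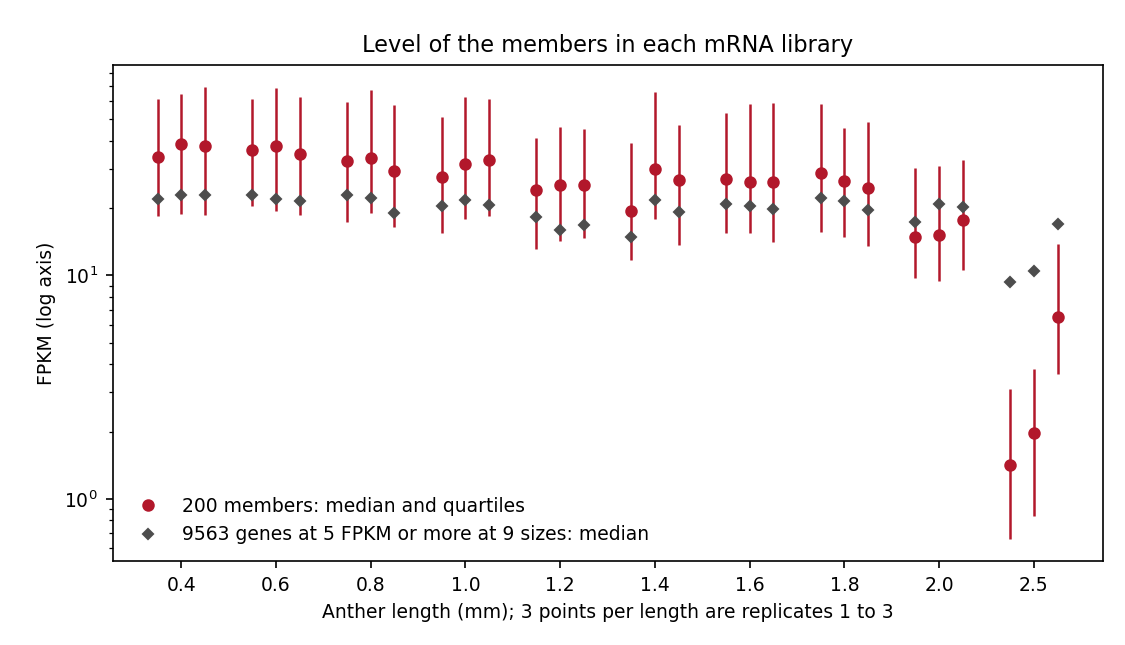
Points give the median FPKM of the 200 members in each of the 30 mRNA libraries (log axis) and bars their quartiles, and diamonds give the median of the 9563 genes expressed at 5 FPKM or more at 9 lengths; lengths are drawn as equally spaced categories. Member medians fall from 24.7 to 28.6 FPKM at 1.8 mm to 14.9 to 17.7 FPKM at 2.0 mm and 1.42 to 6.52 FPKM at 2.5 mm, where replicate 3 is the highest.

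How low the members were at 2.5 mm depended on the library. The gap ran from 1.65 to 4.91 log2 units with a median of 1.87, and 61 members had a gap of at least 2 and 3 of at least 3. Mean levels at 2.5 mm were under 1 FPKM for 20 members, from 1 to 5 FPKM for 105, and at least 5 FPKM for 75. These means are carried by replicate 3: in replicates 1, 2 and 3, 75, 57 and 8 members were under 1 FPKM, and 20, 33 and 119 had at least 5 FPKM. A single member was listed at 0 in a 2.5 mm library, and none in any other library. The 2.5 mm libraries lay below the 2.0 mm libraries for 200 of 200 members, and 38.2% of all tested genes (43.5% of the 9563) had this order. For 175 members every 2.5 mm library lay below all 27 other libraries, an order seen in 11.2% of all tested genes (16.0% of the 9563). By the test described below, 23.4% of all tested genes were lower at 2.5 than at 2.0 mm. The choice of members shapes these counts, so nothing is read from them.

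The limit at 200 genes cut a continuous series. The last member, OsKitaake01g411400.v3.1, had a gap of 1.649, and the next gene, OsKitaake07g232300.v3.1, which was left out, had 1.648. Mean levels of the former were 32.6 FPKM at 2.0 mm and 5.54 FPKM at 2.5 mm, against 17.0 and 4.00 FPKM for the latter.

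The gene with the widest gap, OsKitaake04g159600.v3.1, was also among the most abundant. It had 131, 97.3 and 177 FPKM in replicates 1, 2 and 3 at 0.4 mm, 393, 336 and 385 FPKM at 1.0 mm, and 3822, 3234 and 4645 FPKM at 1.6 mm. At 2.0 mm it had 200.5, 72.6 and 125 FPKM, and at 2.5 mm 1.23, 2.42 and 8.11 FPKM. Its level rose over the first part of the series, peaked at 1.6 mm, and was back near its 0.4 mm level by 2.0 mm (133 ± 64.3 against 135 ± 40.0 FPKM, mean ± SD, n = 3) before it fell further. At 1.2 mm its replicates disagreed, with 836, 823 and 2891 FPKM. The second widest gap, of 3.18 log2 units, belonged to OsKitaake05g161200.v3.1, with 19.6, 8.22 and 10.7 FPKM at 2.0 mm and 0.142, 0.121 and 1.31 FPKM at 2.5 mm. Its highest mean was 137 ± 34.4 FPKM at 0.6 mm, and it was already low at 1.6 mm, at 12.7 ± 5.65 FPKM (mean ± SD, n = 3).

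The highest mean over the 9 lengths, 1271 FPKM, was that of OsKitaake05g061000.v3.1. It had 3511, 2642 and 4762 FPKM at 0.4 mm, 407, 401 and 501 FPKM at 1.6 mm, 259, 127 and 181 FPKM at 2.0 mm, and 22.6, 30.2 and 91.9 FPKM at 2.5 mm. This gene declined through most of the series, so that 2.5 mm was the end of a long slope. The most even member was OsKitaake06g292300.v3.1, whose means over the 9 lengths spanned 0.56 log2 units. Its libraries had between 7.17 and 19.9 FPKM at 0.4 to 2.0 mm, and 1.42, 1.56 and 5.81 FPKM at 2.5 mm. No difference among the 9 lengths passed the test for this gene (limma F test, adjusted p = 0.710).

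**Figure D2:**
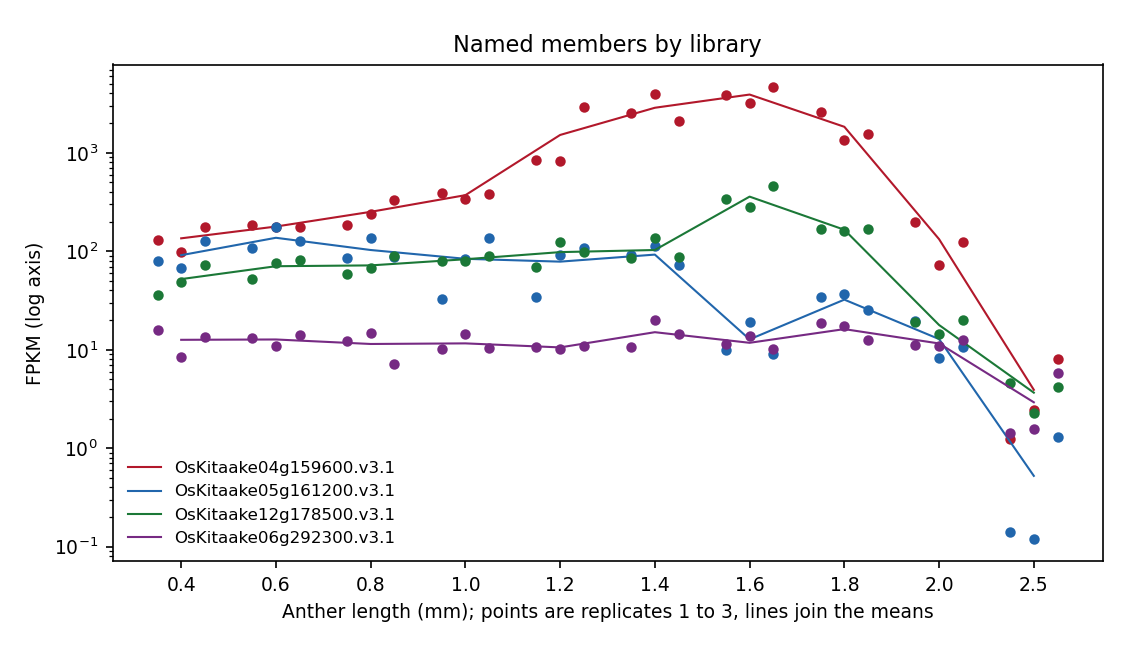
FPKM (log axis) of 4 named members in every mRNA library by anther length, with lines through the means; lengths are drawn as equally spaced categories. OsKitaake04g159600.v3.1 peaks at 1.6 mm, OsKitaake12g178500.v3.1 also peaks there at a lower level, OsKitaake05g161200.v3.1 is high until 1.4 mm, and OsKitaake06g292300.v3.1 stays between 7.17 and 19.9 FPKM until 2.0 mm.

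Members were of moderate abundance and differed in how much they moved before 2.5 mm. Their mean over the 9 lengths was 7.04 to 1271 FPKM with a median of 32.8, against a median of 21.4 FPKM for the 9563 genes. Of the 200, 22 averaged over 100 FPKM and 55 under 20 FPKM. The range of the 9 means of a member was 0.56 to 5.94 log2 units, with a median of 1.79 against 1.12 for the 9563 genes. It was under 1 for 38 members and at least 3 for 35. For 114 members the gap to 2.5 mm was wider than the whole range at the shorter lengths, and the rest varied as much or more among those lengths.

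Members reached their highest level at different lengths. The highest mean lay at 0.4 to 0.8 mm for 104 members (52.0%, against 45.0% of the 9563 genes), at 1.0 to 1.4 mm for 44 (22.0% against 20.1%) and at 1.6 to 1.8 mm for 52 (26.0% against 17.8%). The first of these counts was 99 with quantile normalization and without 1.0 mm replicate 1. None was highest at 2.0 mm, where 17.1% of the 9563 genes had their highest mean. The 9563 genes are thus spread over a further length, so no excess of members at the shorter lengths is read from these shares. Median levels of the 104 genes highest early went down from 51.2 FPKM at 0.4 mm to 20.9 FPKM at 1.4 mm, stood at 23.4 FPKM at 1.8 mm, and were 16.3 FPKM at 2.0 mm and 3.56 FPKM at 2.5 mm. Those of the 44 genes highest in the middle went from 26.9 FPKM at 0.4 mm to 44.5 FPKM at 1.4 mm, 15.9 FPKM at 2.0 mm and 3.15 FPKM at 2.5 mm. Those of the 52 genes highest late went from 25.4 FPKM at 0.4 mm to 52.3 FPKM at 1.6 mm, 18.8 FPKM at 2.0 mm and 3.48 FPKM at 2.5 mm. The groups came from different levels and lay close together at 2.0 and 2.5 mm. In replicates 1, 2 and 3 of 2.5 mm the medians were 1.32, 1.74 and 6.23 FPKM for those highest early, 1.56, 1.96 and 6.77 FPKM for those in the middle, and 1.57, 2.14 and 6.28 FPKM for those late. These groups were formed from the same values and are a description.

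**Figure D3:**
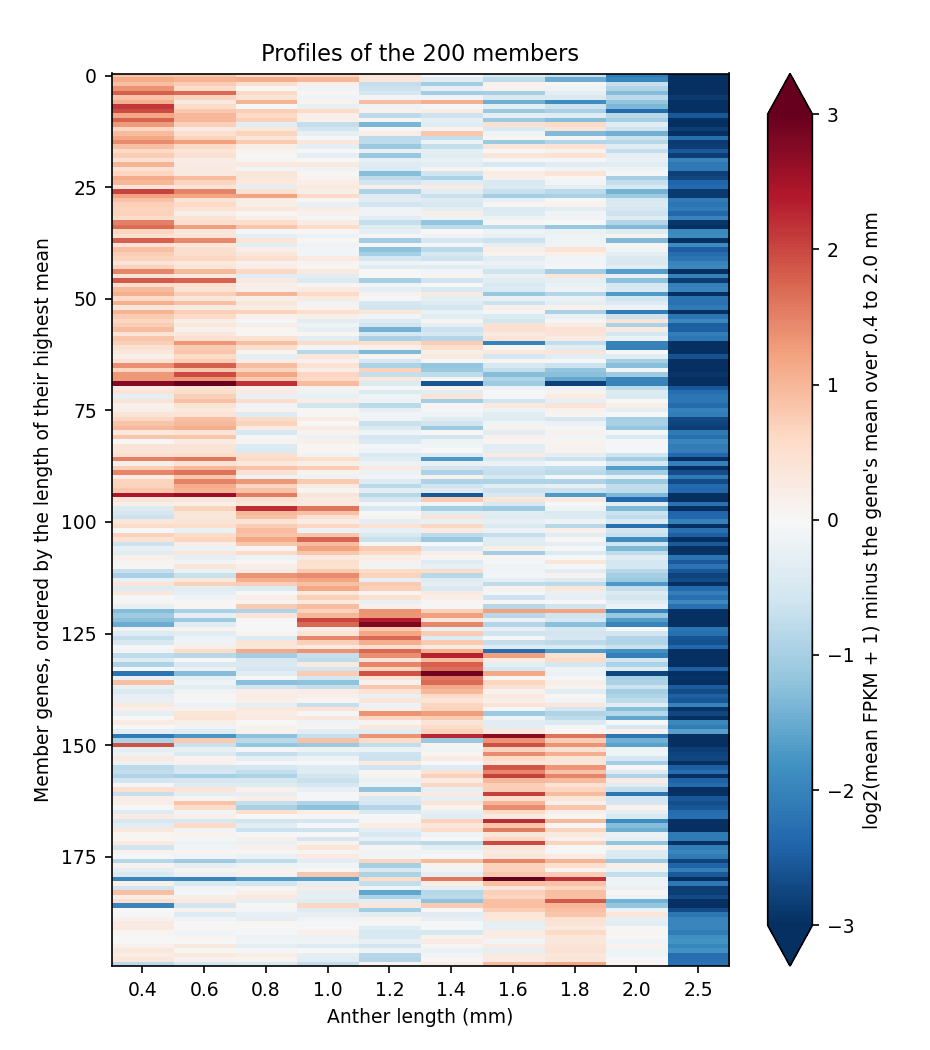
Each row is a member, ordered by the length of its highest mean; colour gives log2(mean FPKM + 1) at each anther length minus the member's own average over 0.4 to 2.0 mm, and values beyond 3 units are drawn at the limit. Members high early (104), in the middle (44) and late (52) share a low column at 2.5 mm, and 97 are already at their lowest of the 9 lengths at 2.0 mm.

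To ask whether members changed before the fall that chose them, all 30 libraries were fitted in limma with the 10 lengths as 1 factor, over the 26091 genes that reached 1 FPKM in 3 or more libraries. All 200 members passed this filter, as their rule implies. For a comparison of 2 lengths a gene was called at an adjusted p (Benjamini-Hochberg over all genes tested) under 0.05 if it differed by 1 log2 unit or more in either direction, and differences are on the log2(FPKM + 1) scale, which understates those of low genes. Among the 9 lengths 157 members (78.5%) differed at an adjusted p under 0.05. This share lay between the 79.9% of all genes tested and the 74.2% of the 9563 genes. Without the 2.5 mm libraries, whose wide spread enters the shared estimate, 181 of the 200 members and 84.5% of all genes differed. The share of the 9563 genes was not computed in that fit. The rule bounds the lowest of these means and so limits how far a member can fall before 2.5 mm.

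Between 0.4 and 1.0 mm members moved in both directions: 24 rose and 25 fell, 49 in all, or 24.5%. Without 1.0 mm replicate 1 there were 21 rises and 16 falls. Of all genes tested 15.1% were called, 5.76% higher and 9.31% lower, and of the 9563 genes 4.28% were higher and 3.82% lower. OsKitaake04g175550.v3.1 had 40.9, 37.5 and 33.7 FPKM at 0.4 mm and 543, 313 and 253 FPKM at 1.0 mm. The groups did not overlap (limma, a difference of 3.20 log2 units, SE 0.372, adjusted p = 2.24e-07). OsKitaake11g239300.v3.1 went from 57.1, 61.4 and 114 FPKM to 1129, 564 and 490 FPKM (3.18, SE 0.456, adjusted p = 6.39e-06). Both had their highest means at 1.2 mm, 471 ± 243 and 1540 ± 390 FPKM (mean ± SD, n = 3). For OsKitaake04g175550.v3.1 the 1.2 mm replicates, 694, 506 and 212 FPKM, overlapped those at 1.0 mm. The largest falls were those of OsKitaake05g078300.v3.1, from 484, 776 and 752 FPKM to 66.2, 84.1 and 96.4 FPKM (limma, -2.997 log2 units, SE 0.474, adjusted p = 2.59e-05), and OsKitaake06g292000.v3.1, from 724, 912 and 584 FPKM to 131, 169 and 135 FPKM (-2.33, SE 0.302, adjusted p = 1.36e-06). The former did not stay low: it had 708, 769 and 556 FPKM at 1.6 mm, then 73.5, 33.3 and 68.3 FPKM at 2.0 mm and 2.00, 6.16 and 19.1 FPKM at 2.5 mm.

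From 1.0 to 1.6 mm 58 members (29.0%) changed, against 23.0% of all genes tested. Of these, 25 rose (13.3% of all genes and 5.87% of the 9563) and 33 fell (9.70% and 5.81%). OsKitaake04g223700.v3.1 rose from 6.42, 7.68 and 8.64 FPKM to 231, 228 and 223 FPKM (limma, a difference of 4.74 log2 units, SE 0.445, adjusted p = 5.12e-09). The gene with the widest gap, OsKitaake04g159600.v3.1, had the next largest rise (3.38, SE 0.458, adjusted p = 1.6e-06). OsKitaake03g074800.v3.1 fell from 81.2, 83.9 and 73.5 FPKM to 4.55, 6.71 and 5.17 FPKM (-3.65, SE 0.310, adjusted p = 1.08e-09). It was then nearly level until 2.0 mm, at 8.38, 6.49 and 9.02 FPKM, and had 0.878, 0.645 and 1.53 FPKM at 2.5 mm. OsKitaake01g322400.v3.1 fell from 28.9, 61.3 and 86.6 FPKM to 8.35, 9.41 and 7.39 FPKM (-2.55, SE 0.370, adjusted p = 4.36e-06). It had 7.66, 4.34 and 8.38 FPKM at 2.0 mm and 0.463, 0.391 and 1.21 FPKM at 2.5 mm. Both genes thus were low well before 2.5 mm and lower still there.

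At 2.0 mm all called members were lower than at 1.6 mm, but the rule limited rises. It left out genes with a wider gap for another run, such as 2.0 mm alone. How far this set the count of rises was not tested. Compared with 1.6 mm, 50 members (25.0%) fell and 0 rose, while of all genes tested 5.16% fell and 6.26% rose, 11.4% in all, and of the 9563 genes 3.71% fell and 2.71% rose. In the same limma fit 84 members had an unadjusted p under 0.05 in either direction. No share of all genes was computed for that count, so nothing is read from it. The median log2 difference of the members was -0.59, against -0.03 for all genes tested. Those include low genes, whose differences this scale understates, and the median of the 9563 genes was not computed for this comparison. The falls came from each group of members: 14 of the 104 highest early, 13 of the 44 highest in the middle and 23 of the 52 highest late. These groups were formed from the same values, and genes highest at 1.6 or 1.8 mm are bound to be lower at 2.0 mm. The counts by group are therefore a description. The largest was that of OsKitaake04g159600.v3.1 (limma, -4.97 log2 units, SE 0.458, adjusted p = 7.44e-09), whose values are given above. OsKitaake12g178500.v3.1 had 340, 279 and 457 FPKM at 1.6 mm, 167, 161 and 168 FPKM at 1.8 mm and 19.0, 14.6 and 19.9 FPKM at 2.0 mm (limma, 2.0 against 1.6 mm, -4.24 log2 units, SE 0.270, adjusted p = 1.51e-11). Its 3 groups did not overlap. At 2.5 mm it had 4.55, 2.25 and 4.20 FPKM, with replicate 3 inside the range of the others.

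Between 1.6 and 2.0 mm, more members were called lower at the last step than at the one before. From 1.8 to 2.0 mm 29 members fell and 0 rose in limma, against 3.09% of all genes lower and 3.73% higher, 6.82% in all. Of the 9563 genes 1.67% were lower and 0.805% higher. The rule limited rises of members at this step as well. Without 2.0 mm replicate 2 there were 21 falls and 1 rise among the members. In the full limma fit 85 members had an unadjusted p under 0.05 in either direction, again with no share of all genes computed. From 1.6 to 1.8 mm 2 members were called, both lower, against 1.12% of all genes, 0.422% lower and 0.701% higher. The lowest of the 9 means was that at 2.0 mm for 97 members (48.5%), against 24.2% of the 9563 genes and 39.2% of the 1105 genes that met the rule with a smaller gap. A lower mean at 2.0 than at 1.8 mm, called or not, was seen in 183 members and in 63.1% of the 9563 genes, and the median difference was -0.52 against -0.12 log2 units. With quantile normalization these medians were -0.50 and -0.09. For the 29 members (14.5%) called lower at 2.0 than at 1.8 mm, the lower level was therefore not confined to 2.5 mm.

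The step with the most calls was 1.6 against 1.4 mm, and those before it had fewer. At 0.6 against 0.4 mm 5 members (2.5%) were called, against 4.85% of all genes. There were 4 (2%, against 4.53%) at 0.8 against 0.6 mm and 3 (1.5%, against 2.07%) at 1.0 against 0.8 mm. At 1.2 against 1.0 mm 16 were called (8%, against 8.69%), and 6 (3%, against 5.26%) at 1.4 against 1.2 mm. Of the 9563 genes 1.10% were higher and 0.241% lower at 0.6 against 0.4 mm. In the same order these shares were 0.429% and 0.638%, then 0.512% and 0.0105%, at the following steps up to 1.0 mm. They were 0.795% and 4.72% at 1.2 against 1.0 mm and 0.899% and 0.617% at 1.4 against 1.2 mm. From 1.4 to 1.6 mm 26 rose and 18 fell, 44 in all or 22.0%, against 20.7% of all genes, 12.9% higher and 7.83% lower. Of the 9563 genes 9.52% were higher and 3.48% lower. Over the 8 steps 125 members were called in none, 49 in 1 and 26 in more than 1, and 64.0% of all genes tested were called in none.

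**Figure D4:**
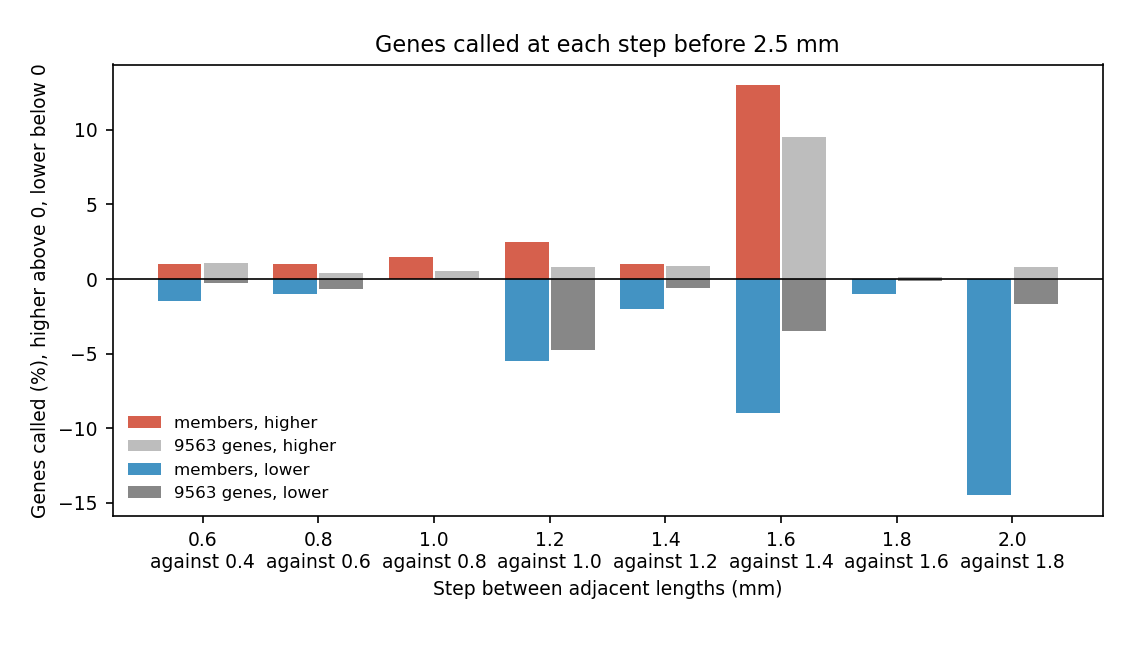
Bars give the share of genes called at each step between adjacent anther lengths before 2.5 mm (limma, adjusted p under 0.05 and a difference of 1 log2 unit or more), higher above 0 and lower below 0, for the 200 members (coloured) and the 9563 genes expressed at 9 lengths (grey). At 1.6 against 1.4 mm members go both ways (26 higher, 18 lower), and at 2.0 against 1.8 mm only downwards (29 lower, against 1.67% of the 9563 genes). The rule limits rises of members to 2.0 mm.

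The 3 libraries of 2.5 mm differed in how far the members had fallen. Relative to its own mean at 2.0 mm, the median member had 8.98% of its FPKM left in replicate 1, 11.6% in replicate 2 and 41.1% in replicate 3. Replicate 3 was the highest of the 3 for 194 members and for 85.2% of the 9563 genes. In replicates 1, 2 and 3, 110, 82 and 3 members had under 10% left, and 0, 0 and 58 had over 50% left. The same libraries also differed in all expressed genes: the median of the 9563 genes was 45.3%, 50.0% and 85.4% of their 2.0 mm level. Set against that background, the median member stood at 19.8%, 23.1% and 48.1% of the share kept by the 9563 genes. The 1105 other genes that met the rule kept 20.4%, 23.9% and 60.5%. The members were chosen for the widest fall to 2.5 mm, so their lower shares follow from the rule. The top 1000 genes by FPKM took 68.9%, 67.6% and 55.1% of the total in these libraries, and 40.3% to 61.7% in the others, and the part of this in the lower level of the members was not tested.

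**Figure D5:**
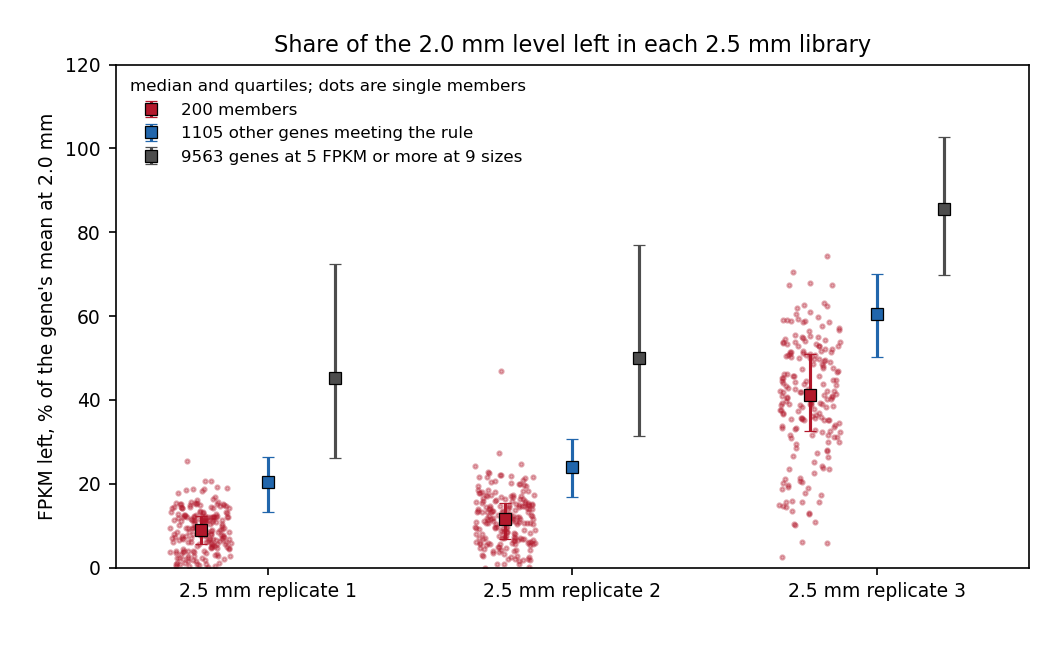
FPKM in each 2.5 mm library as a percentage of the gene's mean at 2.0 mm; dots are single members, and squares with bars are medians and quartiles of the members, of the 1105 other genes that met the rule and of the 9563 genes expressed at 9 lengths. Members keep 8.98%, 11.6% and 41.1% at the median in replicates 1, 2 and 3, and all 3 sets are highest in replicate 3.

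The spread between replicates was accordingly widest at 2.5 mm. The median SD of log2(FPKM + 1) between the 3 replicates was 0.899 for the members at 2.5 mm, against 0.132 to 0.411 at the other lengths, and 0.488 for the 9563 genes at 2.5 mm. Single members also differed in replicate 3. OsKitaake02g329200.v3.1 kept the most there, 74.2% of its 2.0 mm level, with 1.10, 1.61 and 9.82 FPKM in the 2.5 mm libraries. OsKitaake04g153000.v3.1 kept 70.5%, with 0.536, 1.06 and 5.60 FPKM. For both genes replicate 3 lay close to the 2.0 mm libraries, which had 11.5, 14.3 and 13.8 FPKM and 9.92, 5.87 and 8.02 FPKM, while replicates 1 and 2 were far below. OsKitaake03g379600.v3.1 kept the least, 2.57%, with 0.0494, 0.0223 and 0.351 FPKM at 2.5 mm. Its 2.0 mm libraries disagreed, at 22.9, 0.829 and 17.2 FPKM, so that share rests on an uncertain base. OsKitaake06g266500.v3.1 kept 5.96%, with 0.0927, 1.33 and 0.892 FPKM at 2.5 mm, and was 1 of the 6 members in which replicate 3 was not the highest. The order of members by the share left was similar between libraries (Spearman's rho = 0.716 between replicates 1 and 2, 0.447 between 1 and 3, 0.536 between 2 and 3), across 200 genes that share the 2.0 mm mean in each share, which is a description only.

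Each 2.5 mm library was also read for genes chosen without it. The rule was applied to the remaining libraries and the left-out library was then looked up, so that its own values took no part in the choice. The 2.0 mm libraries, against which the shares are taken, and the other 2.5 mm libraries did, so these values are a description. The number of genes that met the rule moved from 1305 to 690 without replicate 1, 879 without replicate 2 and 2646 without replicate 3. Of the 200 genes chosen without replicate 1, 166 were members, and in replicate 1 the 200 had a median of 11.4% of their 2.0 mm level left, against 45.3% for the 9563 genes. All 200 lay below every 2.0 mm library there, as did 79.8% of the 9563 genes. Without replicate 2, 173 were members, the median share left in replicate 2 was 13.5% against 50.0%, and 198 lay below every 2.0 mm library, as did 77.7% of the 9563. Without replicate 3, 165 were members, the median share left in replicate 3 was 43.8% against 85.4%, and 195 lay below every 2.0 mm library, as did 45.6% of the 9563. In each left-out library the median share left was below that of the 9563 genes, and it was highest in replicate 3.

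The IDs and transcript entries of the members were not used by the rule. Of the members, 67 (33.5%) had more than 1 transcript entry in the tables, as did 32.5% of the 9563 genes and 19.9% of all genes. The first number in a Kitaake ID, which by the naming of rice genes stands for the chromosome, was 3 for 43 members (21.5%, against 15.0% of the 9563 genes and 17.0% of all genes that met the rule), 1 for 32 (16.0% against 14.3%), 2 for 17 (8.50% against 12.35%) and 12 for 6 (3.00% against 5.11%). These shares are descriptions without a test.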

How the data were processed

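Groups and replicate numbers were taken from sample titles. Tools listed, without roles, in the submitters' processing notes are StringTie 2.1.4, HISAT2 2.1.1, Bowtie2 2.5.2, FastQC 0.12 and cutadapt 3.0. No genome build is named in what was used here. The authors deposited FPKM for 48494 transcript entries per mRNA library, named by gene ID per the file headers. Entries were summed per ID. Among 1813 low single-entry genes at most 5 shared 1 ratio between a pair of libraries, so whole reads were not recovered and depth limits could not be set. The 30 small RNA libraries were not used here. Values of log2(FPKM + 1) went into limma 3.58.1 under R 4.3.3 (lmFit, then eBayes with its trend option), which was tested on simulated data. Alternatives are given in the closing section.

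Named IDs are the 2 widest gaps, the last member and the next gene, the 2 highest means, the most even member, the 2 highest and 2 lowest shares left in 2.5 mm replicate 3, and up to 2 called rises and 2 called falls without overlap between groups per comparison. At 2.0 against 1.6 mm there was no called rise. The members, the rules for named IDs and the comparisons were chosen with earlier results of these data known, and the 2.0 against 1.8 mm comparison and the groups by highest length after these values were seen.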

Additional observations from a re-analysis of the deposited data

How the results depend on the processing

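The rule found 157 to 187 of the 200 members again under quantile normalization, rescaling of FPKM to TPM, a pseudocount of 0.1, the median of replicates, the log2 of mean FPKM, a minimum of 1 FPKM or the highest transcript entry, and 165 to 189 without any 1 library of 2.0 or 2.5 mm. With a minimum of 10 FPKM it found 130, since only genes above that level could then be chosen. The total counts of members called stayed within 1.5 times of those reported under these alternatives: a pseudocount of 0.1, no filter, both scalings, the compared lengths alone and each library left out. By direction, falls at 1.0 against 0.4 mm went from 25 to 16 without 1.0 mm replicate 1. At 2.0 against 1.6 mm they were 39 to 53 falls with a library left out, and at 2.0 against 1.8 mm 22 to 41 members, highest without 2.5 mm replicate 3. With the replicate number as a block the counts were 154 among the 9 lengths, 49, 58 and 50 for the 3 comparisons and 31 at 2.0 against 1.8 mm. Same-numbered deviations correlated at -0.383 to 0.342 with a median of -0.0022, over 0.1 in 25 of 135 pairs. Between 0.6 and 0.8 mm they were 0.342, 0.124 and 0.218 in replicates 1, 2 and 3. Differently numbered deviations were not compared, so this cannot tell whether replicate numbers pair the samples. The alternatives for 2.0 against 1.8 mm and for the lengths of highest and lowest means were chosen after seeing the data. Members at their lowest at 2.0 mm numbered 104 and 106 under the 2 scalings. All 10 named changes stayed called with their direction in these fits.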
